A study of Mus musculus with 48 samples.

Results

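The expression of 7 genes of the colony-stimulating factor system was followed through mouse skin phagocytes: the receptor genes Csf1r, Csf2ra, Csf2rb, Csf3r and Flt3, and the genes of 2 ligands of the Csf1r product, Csf1 and Il34. Members were the probe sets that carry one of these symbols alone. Each of the 7 had 1 probe set, and 7 of 7 passed the filter on low values that left 15591 genes for testing. RNA was measured on 48 Affymetrix mouse gene arrays, 3 for each of 16 groups, from 6 populations sorted by flow cytometry from ear skin. Imiquimod, a Toll-like receptor 7 agonist that gives a psoriasis-like inflammation, was put on the ears as a 5% cream, 7 mg for each ear side, daily in a 14-day course, in mice of 8 to 11 weeks.

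The dermal populations were monocytes (CD11b+, CD64low, CCR2+, Ly-6Chi, MHCIIlow), monocyte-derived dendritic cells or moDC (CD11b+, CD64low, CCR2+, Ly-6Chigh, MHCII+), MHCIIlow and MHCIIhi macrophages (CD11b+, CD64hi, CCR2low, Ly-6Clow), and CD11b dendritic cells or CD11b DC (CD11b+, CD64-, Ly-6C-, MHCII+, CD24-). Langerhans cells (LC; CD11b+, MHCII+, CD24+) were taken from epidermis. Of these, 4 populations have arrays in all 3 conditions (untreated skin, day 5 and day 11 of imiquimod), while monocytes lack day 11 and MHCIIhi macrophages lack day 5. RNA amounts ran from 1 to 20 ng and were amplified in 2 rounds. Nothing in the labels states that the samples within a group are separate mice, and p-values therefore measure the spread between these samples only.

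Colony-stimulating factors are secreted proteins that set the survival, division and maturation of myeloid cells. The Csf1r product is the receptor tyrosine kinase for M-CSF (Csf1) and for IL-34 (Il34). Macrophages depend on it, and Langerhans cells depend on IL-34 made by keratinocytes. Csf2ra encodes the GM-CSF-binding chain and Csf2rb the common beta chain that signals for GM-CSF, interleukin-3 and interleukin-5. Csf3r encodes the G-CSF receptor of neutrophils and monocytes, and Flt3 the receptor for Flt3 ligand, which drives dendritic cell development.

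Promoter sequence was looked for in the RefSeq table (GRCm38.p6) for the members other than Csf1r and for Csf2rb2, the neighbouring copy of Csf2rb. It was available for 4 of these receptor genes, counting Csf2rb2. They are shown because these genes moved in Langerhans cells under imiquimod, in lower case, 5′ to 3′ on the gene's strand, with the last base just before the transcript start that the table uses. Capitals mark matches to 3 motifs searched on both strands: the PU.1 core GAGGAA, the STAT core TTCNNNGAA and the C/EBP motif TTGCNNAA.
Csf2ra: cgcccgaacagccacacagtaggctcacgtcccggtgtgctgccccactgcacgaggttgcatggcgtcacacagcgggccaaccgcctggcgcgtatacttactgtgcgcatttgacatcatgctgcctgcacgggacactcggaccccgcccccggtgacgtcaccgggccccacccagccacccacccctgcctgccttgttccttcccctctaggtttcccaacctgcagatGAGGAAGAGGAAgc
Csf3r: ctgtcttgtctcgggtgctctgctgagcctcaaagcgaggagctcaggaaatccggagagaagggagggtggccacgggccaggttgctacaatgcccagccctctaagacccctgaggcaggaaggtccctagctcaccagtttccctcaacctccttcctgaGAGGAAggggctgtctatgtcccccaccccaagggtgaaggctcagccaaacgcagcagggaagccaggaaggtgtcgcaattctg
Flt3: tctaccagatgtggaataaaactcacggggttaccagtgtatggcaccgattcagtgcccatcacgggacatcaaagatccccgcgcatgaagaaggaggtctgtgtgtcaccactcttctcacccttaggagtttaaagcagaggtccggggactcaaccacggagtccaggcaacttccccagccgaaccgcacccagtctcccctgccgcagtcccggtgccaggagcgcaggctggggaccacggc
Csf2rb2: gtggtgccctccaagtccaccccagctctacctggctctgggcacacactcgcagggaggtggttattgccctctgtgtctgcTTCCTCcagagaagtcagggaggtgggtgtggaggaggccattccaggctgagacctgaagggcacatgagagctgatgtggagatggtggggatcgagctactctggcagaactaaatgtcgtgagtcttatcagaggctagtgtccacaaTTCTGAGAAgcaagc
They lie at chr19:61228419-61228668 on the minus strand (Csf2ra), chr4:126024409-126024658 on the plus strand (Csf3r), chr5:147400490-147400739 on the minus strand (Flt3) and chr15:78305722-78305971 on the minus strand (Csf2rb2). Csf2ra holds 2 PU.1 cores, side by side without overlap, whose first bases lie 14 and 8 bases before the start. Csf3r holds 1, with its first base 86 bases before the start. The whole Csf3r window lies inside the gene as annotated (chr4:126023441-126044975). The end of the Csf2ra window, with both PU.1 cores, likewise lies inside that gene (chr19:61217191-61228461). Csf2rb2 holds 1 PU.1 core on the other strand, with its first printed base 167 bases before the start, and 1 STAT core 15 bases before it. Flt3 holds 0 of the 3 motifs in this window, which says only that these letters are not there, and the unprinted window of Csf1 likewise holds 0. Of 32851 promoters of the same length, 23.3% hold the PU.1 core, 7.02% the STAT core and 9.56% the C/EBP motif, so the matches are a description.

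Array medians were similar (log2 4.10 to 4.37). Labels were checked against marker lists. The mean of the LC markers was 10.57 to 10.95 in the 9 LC arrays and 4.77 to 8.99 in the 39 dermal arrays, with the highest dermal values in CD11b DC under imiquimod. The macrophage list was highest in the macrophages (9.30 to 10.28), the monocyte list in monocytes (10.15 to 10.71), and the conventional DC list in CD11b DC (6.70 to 7.80). LC at day 5 overlapped this last range (6.72 to 7.02). Within untreated monocytes and within day 11 CD11b DC, replicate 2 had the lowest mean correlation with the other arrays of the group, 0.932 and 0.946 (the other untreated monocyte arrays had 0.947 and 0.940). They are called the arrays that stood apart, and results that rest on them are given with and without them. The letter after BMN_ in the titles differs between untreated, day 5 and day 11 dermal samples and between day 11 and other LC samples. The meaning of the letter is not given, and a batch that followed it cannot be told apart from treatment there. Untreated LC carry F and untreated dermal samples B, so it also cannot be told apart from the differences between untreated LC and dermal cells. In the day 5 comparison of responses, the dermal samples go from B to F while LC keep F. In the day 11 comparison, the dermal samples go from B to G and LC from F to G. The untreated letters thus differ in both comparisons. In sorted bulk RNA, a smaller share of cells that express a gene and less RNA in each cell cannot be told apart.

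Below, levels are the authors' log2 expression values, and changes are log2 differences of group means ± SE from a limma fit over all arrays (n = 3 arrays in each group). A gene is called where its p, adjusted by Benjamini-Hochberg over all genes tested, is under 0.05. Levels are compared within a probe set and not between genes.

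**Figure D1:**
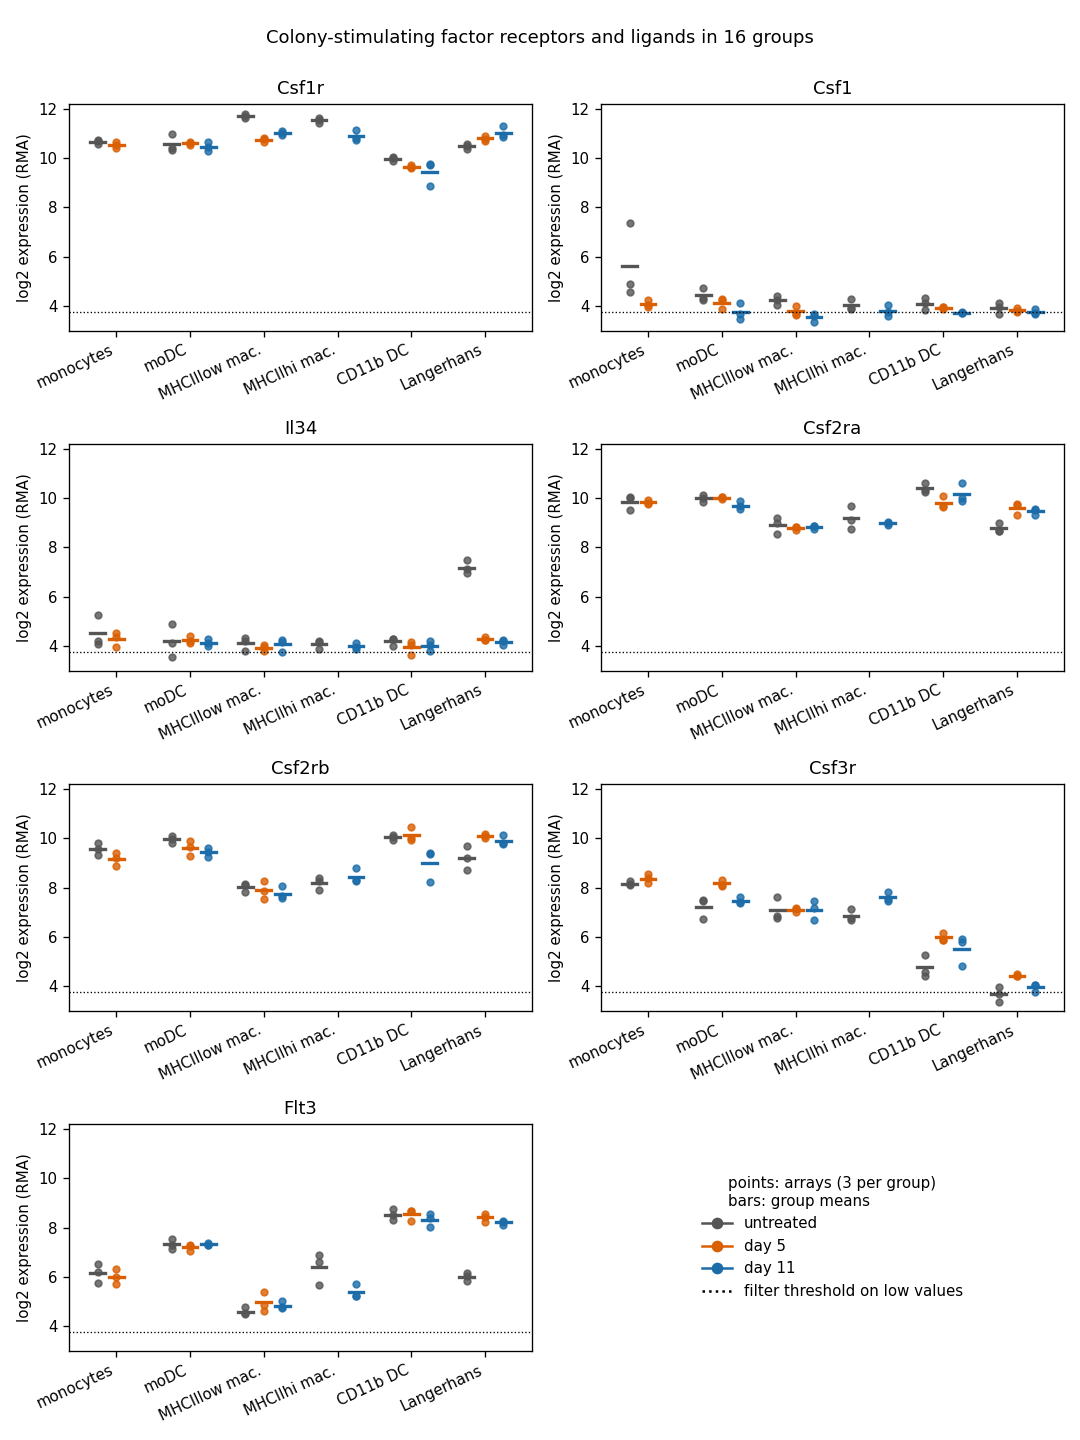
Log2 expression of the 7 genes (y axis) in the 6 populations (x axis), untreated, at day 5 and at day 11 of imiquimod. Points are arrays, bars are group means of 3 arrays, and the dotted line is the filter threshold of 3.77. Il34 stands out in untreated LC alone, Flt3 of LC is near 6 untreated and above 8 under imiquimod, and 1 untreated monocyte array sets Csf1 apart.

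Csf1r (probe set 10456071) was expressed in every group and lay above the filter threshold on 48 of 48 arrays. It was highest in untreated macrophages, at 11.70, 11.61 and 11.78 in MHCIIlow and 11.63, 11.43 and 11.52 in MHCIIhi cells. Untreated monocytes had 10.68, 10.55 and 10.72, moDC 10.96, 10.40 and 10.31, LC 10.48, 10.35 and 10.58, and CD11b DC 10.02, 9.88 and 9.99. The 6 macrophage arrays lay above all others of untreated skin and the 3 CD11b DC arrays below all others. Of neighbours in this order, MHCIIhi macrophages and monocytes differed by 0.88 ± 0.16 (adjusted p = 0.000132) and LC and CD11b DC by 0.50 ± 0.16 (adjusted p = 0.0193). The second call was lost without LC replicate 1 (adjusted p = 0.0511) or 3 (0.0791), or without CD11b DC replicate 2 (0.0699). The other neighbours did not differ past the test (adjusted p = 0.826, 0.858 and 0.752).

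Under imiquimod Csf1r moved in opposite directions in dermal macrophages and in LC. In MHCIIlow macrophages it stood at 10.80, 10.76 and 10.65 at day 5 and at 11.02, 10.94 and 11.08 at day 11, all below the untreated arrays. It fell by 0.96 ± 0.16 (adjusted p = 5.77e-05) and by 0.68 ± 0.16 (adjusted p = 0.00415). In MHCIIhi macrophages at day 11 it stood at 11.11, 10.74 and 10.81, again below every untreated array, and fell by 0.64 ± 0.16 (adjusted p = 0.00517). These 9 treated macrophage arrays (10.65 to 11.11) still lay within or above the range of monocytes and moDC (10.28 to 10.96). Of the 6 macrophage markers, 1 rose and 2 fell in MHCIIlow cells at day 5 (median change -0.72), 0 rose and 1 fell at day 11 (-0.75), and 0 rose and 2 fell in MHCIIhi cells (-0.41). In MHCIIlow cells 0 of 6 mast cell markers rose and 4 fell at day 5 (mean 4.71 to 6.31 untreated, 4.25 to 4.73 at day 5), and 1 fell at day 11. In MHCIIhi cells 8 of 19 keratinocyte markers rose and 0 fell at day 11 (mean 6.21 to 7.22 untreated, 7.29 to 8.12 at day 11). Their part in the fall of Csf1r was not tested.

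In LC, Csf1r stood at 10.69, 10.78 and 10.89 at day 5 and at 11.30, 10.83 and 10.92 at day 11. All 6 arrays were above the 3 untreated ones. The change at day 5 (0.32 ± 0.16) did not pass the test (adjusted p = 0.211). The change at day 11 (0.55 ± 0.16) did (adjusted p = 0.0129), but not without LC day 11 replicate 1 (0.41, adjusted p = 0.112) or without untreated LC replicate 2 (0.49, adjusted p = 0.0684). In CD11b DC the arrays read 9.61, 9.71 and 9.60 at day 5 and 9.75, 8.86 and 9.70 at day 11, and the day 11 fall of 0.53 ± 0.16 (adjusted p = 0.0285) rests on replicate 2. Without it the change of Csf1r was -0.24 (adjusted p = 0.423), and the call was also lost without untreated CD11b DC replicate 1 (-0.50, adjusted p = 0.0899) or 4 (-0.52, adjusted p = 0.082). Monocytes at day 5 (10.54, 10.41 and 10.63) and moDC at day 5 (10.62, 10.65 and 10.52) and day 11 (10.62, 10.43 and 10.28) overlapped their untreated arrays, with changes of -0.12, 0.04 and -0.11 that did not pass the test.

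Csf2ra (probe set 10468893) was above the filter threshold on 48 of 48 arrays and formed a high and a low tier in untreated skin. The high tier held CD11b DC (10.25, 10.34 and 10.61), moDC (10.14, 10.01 and 9.83) and monocytes (9.99, 9.51 and 10.03). The low tier held MHCIIhi macrophages (9.11, 9.69 and 8.73), MHCIIlow macrophages (8.99, 9.18 and 8.54) and LC (8.66, 8.67 and 8.99). The tiers overlapped only where MHCIIhi macrophage replicate 2 exceeded monocyte replicate 2. Between the tiers, monocytes and MHCIIhi macrophages differed by 0.67 ± 0.19 (adjusted p = 0.0156), a call lost without monocyte replicate 1 (adjusted p = 0.0657) or 4 (0.0827) or without MHCIIhi macrophage replicate 1 (0.0594) or 4 (0.162). Neighbours within a tier did not differ past the test (adjusted p = 0.28 to 0.792). The high tier was not uniform, since CD11b DC (mean 10.40) exceeded monocytes (mean 9.84) past the test.

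Csf2ra rose in LC under imiquimod. The arrays read 9.75, 9.31 and 9.71 at day 5 and 9.50, 9.57 and 9.33 at day 11, all above the untreated LC, and 3 of the 6 below the lowest array of the high tier. It rose by 0.81 ± 0.19 at day 5 (adjusted p = 0.00178) and by 0.69 ± 0.19 at day 11 (adjusted p = 0.00822). Macrophage levels moved little, with 8.69 to 8.84 in MHCIIlow cells at day 5, 8.74 to 8.88 at day 11, and 8.90 to 9.02 in MHCIIhi cells, and did not pass the test. In CD11b DC, Csf2ra read 9.69, 10.09 and 9.64 at day 5, below the untreated arrays, and fell by 0.59 ± 0.19 (adjusted p = 0.0465). That call was lost without any one of untreated replicates 1, 2 and 4 or day 5 replicates 2 and 4 (-0.67 to -0.49, adjusted p = 0.0576 to 0.194), and at day 11 (9.86, 10.60 and 10.00) the change did not pass the test. Monocytes (9.76 to 9.93 at day 5) and moDC (9.98 to 10.06 at day 5, 9.54 to 9.87 at day 11) had no call.

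Csf2rb (probe set 10425066) was lowest in macrophages of untreated skin, and the mean of LC lay between them and the other groups. Untreated CD11b DC read 10.13, 10.07 and 9.93, moDC 10.11, 9.83 and 9.95, monocytes 9.57, 9.32 and 9.81, and LC 8.73, 9.68 and 9.20. MHCIIhi macrophages read 8.29, 7.91 and 8.39 and MHCIIlow macrophages 8.13, 7.81 and 8.12, so that all 6 macrophage arrays lay below all others of untreated skin. LC exceeded MHCIIhi macrophages by 1.01 ± 0.24 (adjusted p = 0.00145). Csf2rb of LC was lower than that of CD11b DC (-0.84 ± 0.24, adjusted p = 0.0089) and of moDC (-0.76 ± 0.24, adjusted p = 0.0184). Both calls were lost without LC replicate 1 (-0.60, adjusted p = 0.109, and -0.52, adjusted p = 0.173), and that against moDC also without moDC replicate 1 (-0.69, adjusted p = 0.0698). Other neighbours in the order did not differ past the test (adjusted p = 0.273 to 0.94).

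In LC, Csf2rb read 10.00, 10.09 and 10.18 at day 5 and 10.13, 9.75 and 9.81 at day 11, above every untreated LC array. It rose by 0.89 ± 0.24 (adjusted p = 0.00787) and by 0.69 ± 0.24 (adjusted p = 0.0421). The day 5 call was lost without untreated LC replicate 1, the lowest array (0.65, adjusted p = 0.0984). The day 11 call of Csf2rb was lost without untreated replicate 1 or 3 or any of the 3 day 11 arrays (0.46 to 0.77, adjusted p = 0.0592 to 0.283). In CD11b DC, Csf2rb read 10.03, 9.93 and 10.47 at day 5 and 9.37, 8.22 and 9.40 at day 11. The day 11 arrays lay below the untreated and day 5 arrays, and Csf2rb fell by 1.05 ± 0.24 against untreated (adjusted p = 0.00362) and by 1.15 ± 0.24 against day 5 (adjusted p = 0.00994). Both calls of Csf2rb rest on CD11b DC day 11 replicate 2, without which the changes were -0.66 (adjusted p = 0.1) and -0.76 (adjusted p = 0.233). The second was also lost without day 5 replicate 4 (-0.99, adjusted p = 0.121). Csf2rb did not pass the test in monocytes (8.87 to 9.39 at day 5), moDC (9.29 to 9.89 and 9.26 to 9.59), MHCIIlow macrophages (7.54 to 8.28 and 7.57 to 8.05) or MHCIIhi macrophages (8.27 to 8.78 at day 11).

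Csf2rb2, which in mice encodes a close copy of the beta chain specific to interleukin-3, lies next to Csf2rb with 0 genes between them. Whether probes of one bind transcripts of the other was not tested. In LC it read 8.37, 9.36 and 8.63 untreated, 10.07, 10.02 and 10.02 at day 5, and 10.36, 9.99 and 10.13 at day 11. These 6 treated LC arrays lay above all 39 dermal arrays (6.38 to 9.28). Csf2rb2 rose by 1.25 ± 0.32 (adjusted p = 0.0045) and by 1.37 ± 0.32 (adjusted p = 0.00173). At day 11 it stood 1.90 ± 0.32 above CD11b DC (adjusted p = 3.03e-05), and 1.65 without CD11b DC day 11 replicate 2 (adjusted p = 0.000958).

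Csf3r (probe set 10508074) was graded across the populations. Untreated monocytes read 8.26, 8.13 and 8.10, moDC 7.51, 7.44 and 6.72, MHCIIlow macrophages 7.62, 6.86 and 6.76, and MHCIIhi macrophages 7.12, 6.69 and 6.76. CD11b DC read 4.43, 4.59 and 5.28, and LC 3.36, 3.96 and 3.69, with 1 of the 3 above the filter threshold of 3.77. Monocytes, the moDC and macrophages together, CD11b DC and LC formed 4 steps whose arrays did not overlap. Monocytes exceeded moDC by 0.94 ± 0.24 (adjusted p = 0.0174), a call lost without monocyte replicate 1 (0.054) or moDC replicate 4 (0.163). MHCIIhi macrophages exceeded CD11b DC by 2.10 ± 0.24 (adjusted p = 4.2e-08) and CD11b DC exceeded LC by 1.10 ± 0.24 (adjusted p = 0.000554). The LC level is near background, so the size of this difference and of the changes in LC below may be understated. The moDC and the macrophages did not differ past the test (adjusted p = 0.815 and 0.855).

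Csf3r was higher under imiquimod in 5 of 10 comparisons with untreated cells and lower in 0. The firmest rise was in CD11b DC at day 5, where the arrays read 6.18, 5.88 and 5.88, above every untreated array, a change of 1.22 ± 0.24 (adjusted p = 0.000889). In moDC at day 5 Csf3r read 8.13, 8.06 and 8.31, also clear of untreated cells, a rise of 0.95 ± 0.24 (adjusted p = 0.00906). Without untreated moDC replicate 4, the lowest array, it was 0.69 (adjusted p = 0.0951). LC at day 5 (4.41, 4.41 and 4.48) lay above untreated LC (0.76 ± 0.24, adjusted p = 0.0234), and MHCIIhi macrophages at day 11 (7.54, 7.45 and 7.81) above their untreated arrays (0.74 ± 0.24, adjusted p = 0.0315). CD11b DC at day 11 read 4.82, 5.80 and 5.92 and overlapped untreated cells (0.75 ± 0.24, adjusted p = 0.0396). These last 3 calls are fragile. The LC call was lost without untreated replicate 1 or 3 or any day 5 array (0.61 to 0.78, adjusted p = 0.0537 to 0.142). The MHCIIhi call of Csf3r was lost without untreated replicate 2 or 4 or day 11 replicate 1 or 3 (0.64 to 0.77, adjusted p = 0.056 to 0.136). The CD11b DC day 11 call of Csf3r was lost without untreated replicate 1 or 2 or day 11 replicate 2 or 3 (0.55 to 0.66, adjusted p = 0.13 to 0.231). In monocytes (8.17 to 8.55 at day 5), moDC at day 11 (7.38 to 7.62), MHCIIlow macrophages (7.02 to 7.17 and 6.69 to 7.45) and LC at day 11 (3.78 to 4.06) it did not pass the test.

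Neutrophils carry the G-CSF receptor, and 9 markers of these cells were tested. At day 5, 2 rose in CD11b DC (7.98% of all genes called), 2 in moDC (11.3%) and 3 in LC (16.1%), and 0 fell. Where Csf3r had no call, 3 rose in monocytes (12.7%) and 2 in MHCIIlow macrophages (14.2%) at day 5 and 3 in LC at day 11 (17.7%). At day 11, 1 of 9 was called in each of moDC (8.42%), MHCIIlow (9.72%) and MHCIIhi macrophages (14.9%) and CD11b DC (10.3%). These last counts are close to the share of all genes. The list mean in monocytes went from 3.97 to 4.05 untreated to 4.67 to 4.83 at day 5. The mean was 3.45 to 3.52 in untreated CD11b DC and 4.08 to 4.24 at day 5, and it was 3.78 to 3.86 in untreated LC and 4.66 to 4.98 at day 5. It stayed between 3.34 and 4.98 on all 48 arrays, near the filter threshold. Its part in the rise of Csf3r was not tested.

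Flt3 (probe set 10535780) set dendritic cells apart in untreated skin. CD11b DC read 8.52, 8.76 and 8.30 and moDC 7.32, 7.13 and 7.53. MHCIIhi macrophages read 6.62, 5.69 and 6.91, monocytes 6.23, 5.75 and 6.52, and LC 6.04, 5.84 and 6.19, while MHCIIlow macrophages had 4.79, 4.53 and 4.50. CD11b DC and moDC lay above all other untreated arrays, and MHCIIlow macrophages below them. CD11b DC exceeded moDC by 1.20 ± 0.22 (adjusted p = 0.000705), moDC exceeded MHCIIhi macrophages by 0.92 ± 0.22 (adjusted p = 0.0078), and LC exceeded MHCIIlow macrophages by 1.42 ± 0.22 (adjusted p = 3.13e-06). The second was lost without moDC replicate 4 (adjusted p = 0.0616) or MHCIIhi macrophage replicate 2 (0.148). The MHCIIhi macrophages, monocytes and LC between them did not differ past the test (adjusted p = 0.59 and 0.678).

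Flt3 gave the largest rise of any member. In LC it read 8.46, 8.56 and 8.25 at day 5 and 8.29, 8.25 and 8.12 at day 11, far above the untreated LC. It rose by 2.40 ± 0.22, a 5.28-fold change, at day 5 (adjusted p = 1.33e-10) and by 2.20 ± 0.22, or 4.59-fold, at day 11 (adjusted p = 1.36e-09). Flt3 of the 6 treated LC arrays (8.12 to 8.56) thereby lay inside the range of the 9 CD11b DC arrays (8.02 to 8.76), and LC and CD11b DC did not differ past the test at day 5 (-0.14 ± 0.22, adjusted p = 0.865) or day 11 (-0.11 ± 0.22, adjusted p = 0.86). In untreated skin Flt3 of LC was lower than that of CD11b DC by 2.50 ± 0.22 (adjusted p = 1.56e-11). CD11b DC themselves stayed at 8.30 to 8.69 at day 5 and 8.02 to 8.57 at day 11 without a call. MHCIIhi macrophages read 5.25, 5.70 and 5.25 at day 11 and Flt3 fell there by 1.01 ± 0.22 (adjusted p = 0.00154), with 1 untreated array (5.69) inside the treated range. Monocytes (5.73 to 6.32), moDC (7.06 to 7.31 and 7.30 to 7.40) and MHCIIlow macrophages (4.65 to 5.40 and 4.75 to 5.02) had no call for Flt3.

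Markers of other cells moved in LC beside Flt3, where 16.1% of all genes tested were called at day 5 and 17.7% at day 11. The conventional DC list (6 genes) rose in 6 of 6 at day 5 and 5 of 6 at day 11, its mean going from 4.67 to 5.17 untreated to 6.72 to 7.02 and 5.75 to 6.54. At day 5 it was still below that of CD11b DC (7.69 to 7.80). The 4 monocyte markers tested rose in 4 of 4 at day 5 (5.70 to 6.55, against 3.49 to 3.67 untreated) and 1 of 4 at day 11 (3.89 to 5.09). Of the macrophage list, 3 of 6 rose and 1 fell at day 5 (5.25 to 6.25, against 4.57 to 4.76 untreated), and 0 rose and 1 fell at day 11 (4.50 to 4.93). The LC markers were at 10.67 to 10.75 at day 5 and 10.74 to 10.95 at day 11, with 0 of 4 and 1 of 4 called. T cell markers rose in 1 of 5 at either day, close to the share of all genes. Limma called 0 of 6 mast cell, 0 of 3 B cell and 0 of 5 endothelial markers at either day, with 0 at an unadjusted p under 0.05. Of 10 fibroblast markers, 4 rose and 0 fell at day 5 (mean 4.70 to 5.39 untreated, 5.52 to 6.63 at day 5). At day 11, 1 rose (5.15 to 5.70), which is below the share of all genes. The part of these other cells in the rise of Flt3 was not tested. Nor was their part in the LC rises of Csf1r, Csf2ra, Csf2rb, Csf2rb2 and Csf3r or in the LC counts of the pathway lists below.

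**Figure D2:**
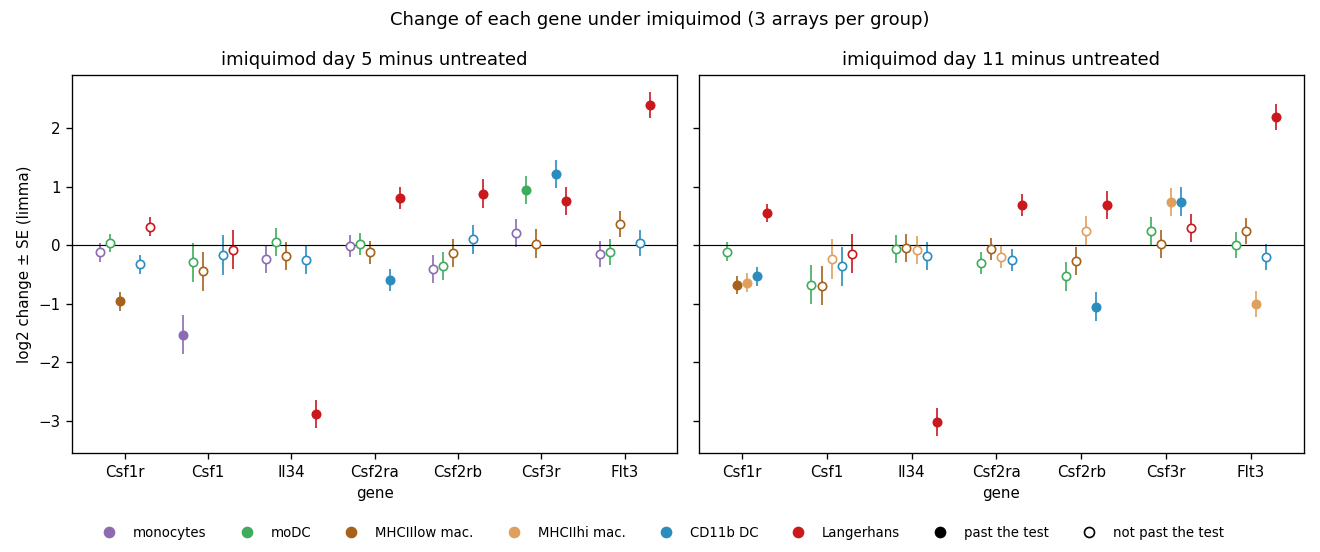
Log2 change ± SE from the limma fit (y axis) of each gene (x axis) under imiquimod against untreated cells of the same population, at day 5 and day 11, with 3 arrays per group. Filled points passed the test. Langerhans cells carry the largest fall (Il34, -2.89 and -3.02) and the largest rises (Flt3, 2.40 and 2.20), while Csf1r falls in macrophages.

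The 2 ligands were near background in most groups. Il34 (probe set 10581664) stood out in untreated LC alone, at 7.47, 7.12 and 6.95. The other 45 arrays lay between 3.58 and 5.28, with the highest values in untreated monocyte replicate 2 (5.28) and untreated moDC replicate 2 (4.89). LC exceeded the next group, monocytes, by 2.66 ± 0.24 (adjusted p = 1.93e-11), and the dermal populations did not differ among themselves past the test (adjusted p = 0.599 to 0.994 for neighbours).

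Il34 fell to the dermal range in LC under imiquimod. It read 4.35, 4.26 and 4.26 at day 5 and 4.03, 4.23 and 4.21 at day 11, and all 6 arrays lay within the range of the dermal arrays. It fell by 2.89 ± 0.24 (adjusted p = 9.44e-12) and by 3.02 ± 0.24 (adjusted p = 2.85e-12), 7.40-fold and 8.13-fold, and no other population had a call. Keratinocytes are the known epidermal source of IL-34, and keratinocyte markers moved with it. Their mean in LC was 9.54, 9.44 and 9.15 untreated, 8.32, 7.56 and 7.63 at day 5, and 7.76, 8.48 and 8.02 at day 11. Of 19 keratinocyte markers tested, 1 rose and 12 fell at day 5 (median change -1.94), and 1 rose and 9 fell at day 11 (-1.11). The keratin gene Krt5 had a mean of 12.24 untreated, 10.94 at day 5 and 11.13 at day 11, and Krt14 of 11.46, 10.22 and 10.49. The part of keratinocyte RNA in the level and the fall of Il34 was not tested. Nor was the part of its fall in the LC rises of the other members and of the pathway lists.

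Csf1 (probe set 10501164) was the lowest member by rank of its mean and lay above the filter threshold on 32 of 48 arrays. Untreated monocytes read 4.55, 7.35 and 4.89, and the 45 arrays outside that group lay between 3.36 and 4.73. The high array was replicate 2, which also carried the highest fibroblast markers of the series, a list mean of 10.41 against 6.74 and 7.55 in replicates 1 and 4. Fibroblasts are a known source of M-CSF, and their part in this Csf1 value was not tested. At day 5 monocytes read 4.04, 4.23 and 3.94, below the untreated arrays, and Csf1 fell by 1.53 ± 0.34 (adjusted p = 0.0023). Without untreated monocyte replicate 2 the change of Csf1 was -0.65, smaller but still past the test (adjusted p = 0.0193). The difference of 1.18 ± 0.34 between untreated monocytes and moDC (adjusted p = 0.0401) became 0.30 without it (adjusted p = 0.421), and it was also lost without moDC replicate 1 (0.146) or 4 (0.115). The other populations did not differ in Csf1 past the test (adjusted p = 0.823 to 0.958 for neighbours), and no other change of Csf1 under imiquimod was called. With both arrays that stood apart left out, Csf1 was called lower at day 11 in moDC (adjusted p = 0.00653), at 3.47 to 4.11 with 1 of 3 arrays above the filter threshold, and in MHCIIlow macrophages (adjusted p = 0.00471), at 3.36 to 3.66 with 0 of 3 above it. No size is given for these changes, since most of the treated arrays are not above the threshold.

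**Figure D3:**
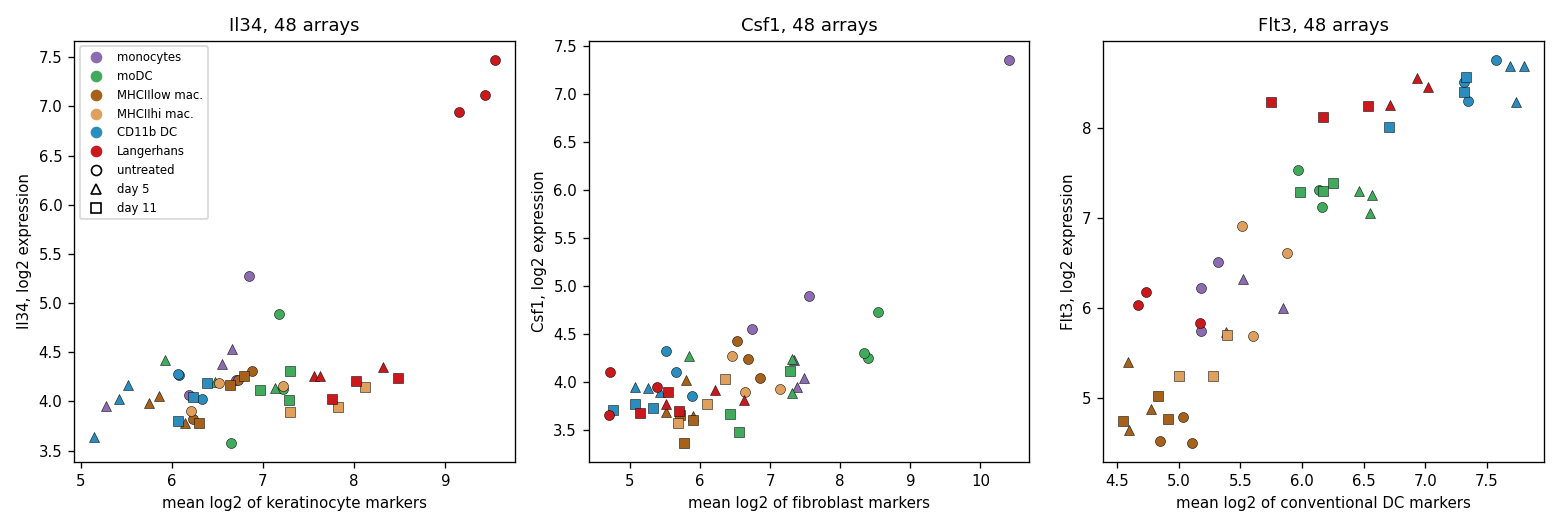
Log2 expression of Il34, Csf1 and Flt3 (y axes) against the mean log2 value of keratinocyte, fibroblast and conventional DC markers (x axes) on 48 arrays. Colours give the population and symbols the condition. Untreated LC stand alone in the Il34 panel, 1 untreated monocyte array (fibroblast mean 10.41, Csf1 7.35) in the Csf1 panel, and treated LC reach the Flt3 level of CD11b DC at lower conventional DC marker means.

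Counted by comparison, the number of members called under imiquimod was highest in LC. In LC 4 of 7 were higher and 1 lower at day 5, where 16.1% of all genes tested were called, and likewise 4 and 1 at day 11, where 17.7% were. In monocytes at day 5, 0 were higher and 1 lower (12.7% of all genes called), in moDC 1 and 0 (11.3%), in MHCIIlow macrophages 0 and 1 (14.2%) and in CD11b DC 1 and 1 (7.98%). At day 11, 0 and 1 were called in MHCIIlow macrophages (9.72%), 1 and 2 in MHCIIhi macrophages (14.9%) and 1 and 2 in CD11b DC (10.3%). In moDC at day 11, limma called 0 of 7 (8.42%), with 1 at an unadjusted p under 0.05. The median change of the members in LC was 0.76 at day 5 and 0.55 at day 11, against 0.02 and 0.03 over all genes tested, and it lay between -0.25 and 0.03 in the dermal comparisons.

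Between day 11 and day 5 few members passed the test, as did few of all genes, which does not show that levels stayed the same. Csf3r of moDC, without a call, had means of 8.17 at day 5 and 7.47 at day 11. Limma called 0 of 7 in moDC (1.01% of all genes called, 1 member at an unadjusted p under 0.05), 0 in MHCIIlow macrophages (0.481%, 0 unadjusted) and 0 in LC (2.12%, 0 unadjusted). In CD11b DC 1 was lower (0.962%), the Csf2rb call that rests on 1 array.

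Among untreated populations, 65 of 105 differences between pairs passed the test over the 7 members. Against monocytes, 1 member was higher and 2 lower in moDC (3.43% of all genes called), 1 and 5 in MHCIIlow macrophages (18.7%), 1 and 4 in MHCIIhi macrophages (12%), 2 and 3 in CD11b DC (13.9%) and 1 and 3 in LC (31%). Against moDC, 1 was higher and 3 lower in MHCIIlow macrophages (10.5%), 1 and 3 in MHCIIhi macrophages (5.16%), 1 and 2 in CD11b DC (3.57%) and 1 and 4 in LC (23.8%). Against MHCIIlow macrophages, 1 was higher and 0 lower in MHCIIhi macrophages (0.898%), 3 and 2 in CD11b DC (13.6%) and 3 and 2 in LC (26.9%). Against MHCIIhi macrophages, 3 were higher and 2 lower in CD11b DC (9.49%) and 2 and 2 in LC (25.9%). Against CD11b DC, 2 were higher and 4 lower in LC (23.1%). The 1 call between the macrophage populations was Flt3, higher in MHCIIhi cells.

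Inflamed LC and CD11b DC were then compared directly. Csf1r was higher in LC by 1.15 ± 0.16 at day 5 (adjusted p = 2.33e-06) and by 1.58 ± 0.16 at day 11 (adjusted p = 1.19e-09). Csf3r was lower in LC by 1.55 ± 0.24 at both days (adjusted p = 1.35e-05 and 7.29e-06). At day 5 these were the 2 calls, 1 higher and 1 lower (7.94% of all genes called). At day 11, 2 were higher and 2 lower (11.8%), the others being Csf2rb (0.90 ± 0.24, adjusted p = 0.0089) and Csf2ra (-0.69 ± 0.19, adjusted p = 0.0115). Without CD11b DC day 11 replicate 2 these were 0.51 (adjusted p = 0.197) and -0.46 (adjusted p = 0.164). The Csf2rb call was also lost without LC day 11 replicate 1 (0.79, adjusted p = 0.0563) and the Csf2ra call without LC day 11 replicate 3 (-0.62, adjusted p = 0.066). In these CD11b DC samples 3 of 4 LC markers had risen at day 5 (median change 2.67) and at day 11 (1.97, and 4 of 4 with 2.57 without replicate 2), and their part in the comparison was not tested.

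The change in LC was also tested against the mean change of the 4 dermal populations with the same days. At day 5, 4 of 7 members responded more upward and 1 more downward in LC (13.5% of all genes called), and at day 11 again 4 and 1 (12.4%). For Flt3 the difference of responses was 2.36 ± 0.25 at day 5 (adjusted p = 4.45e-09) and 2.44 ± 0.25 at day 11 (adjusted p = 2.37e-09). For Il34 it was -2.74 ± 0.27 (adjusted p = 7.26e-10) and -2.93 ± 0.27 (adjusted p = 1.83e-10). The smaller ones were those of Csf1r (0.66 ± 0.18, adjusted p = 0.0097, and 1.04 ± 0.18, adjusted p = 5.69e-05), Csf2ra (0.99 ± 0.21, adjusted p = 0.000939, and 0.89 ± 0.21, adjusted p = 0.00304) and Csf2rb (1.08 ± 0.27, adjusted p = 0.00452, and 1.09 ± 0.27, adjusted p = 0.00456). Csf3r, which rose in both compartments, had differences of 0.17 (adjusted p = 0.778) and -0.15 (adjusted p = 0.814). For Csf1 the differences of 0.53 and 0.34 did not pass the test (adjusted p = 0.413 and 0.658).

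Other genes of these pathways were counted from lists. Of 4 other ligand genes tested of 6 listed, Csf3, the gene of G-CSF, fell in CD11b DC by 1.62 ± 0.37 at day 5 (adjusted p = 0.00451) and by 1.60 ± 0.37 at day 11 (adjusted p = 0.00392; -1.65 without day 11 replicate 2, adjusted p = 0.0165). Csf3 also fell at day 11 in moDC (-1.98 ± 0.37, adjusted p = 0.000725), MHCIIlow (-1.27 ± 0.37, adjusted p = 0.0232) and MHCIIhi macrophages (-1.28 ± 0.37, adjusted p = 0.0161). Untreated CD11b DC had 5.87, 5.17 and 6.43 for Csf3, and day 11 cells 4.12, 4.32 and 4.23, so the groups did not overlap. Flt3l, the ligand of the Flt3 product, rose in LC at day 11 by 0.83 ± 0.27 (adjusted p = 0.0272), from 5.85, 6.08 and 6.27 to 6.75, 7.26 and 6.69. Csf2, the gene of GM-CSF, lay between 3.04 and 4.32 on all 48 arrays, around the filter threshold.

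Among the 4 other receptor genes tested of 6 listed, LC had 2 higher and 1 lower at either day. Sdc1, a syndecan that binds IL-34, read 7.59, 6.83 and 6.71 untreated and 4.72 to 5.51 at day 5, and fell by 1.81 ± 0.24 (adjusted p = 3.93e-07), then by 1.49 ± 0.24 at day 11 (adjusted p = 1.4e-05). Keratinocytes also express Sdc1. Kit, the receptor of stem cell factor and a relative of Csf1r and Flt3, read 4.41, 4.79 and 4.70 untreated and 6.05, 6.22 and 5.71 at day 5, with rises of 1.36 ± 0.19 (adjusted p = 1.05e-06) and 1.08 ± 0.19 (adjusted p = 5e-05). Kit also rose in CD11b DC at day 5 (1.80 ± 0.19, adjusted p = 2.66e-08) and day 11 (1.03 ± 0.19, adjusted p = 0.000333; 1.01 without day 11 replicate 2, adjusted p = 0.00342). The third LC call was Csf2rb2.

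Of 28 genes of signalling below the receptors and of its brakes (30 listed), most did not pass the test in each comparison below. In LC at day 5, 11 rose and 0 fell with a median change of 0.47, against 0.02 over all genes (16.1% of all genes called). They included Socs2, an inhibitor induced by STAT5 (2.50 ± 0.49, adjusted p = 0.000204), the kinase gene Pik3cg (1.59 ± 0.24, adjusted p = 2.71e-06) and the Src-family kinase gene Fgr (1.57 ± 0.37, adjusted p = 0.00174). At day 11, 7 rose and 3 fell (median 0.18, 17.7% of all genes called). In the dermis at day 5, 3 rose and 5 fell in monocytes (12.7% of all genes called), 2 and 4 in moDC (11.3%), 2 and 7 in MHCIIlow macrophages (14.2%) and 1 and 4 in CD11b DC (7.98%). At day 11, 1 rose and 5 fell in moDC (8.42%), 2 and 6 in MHCIIlow macrophages (9.72%), 3 and 6 in MHCIIhi macrophages (14.9%) and 1 and 6 in CD11b DC (10.3%). Over all genes too, more were lower than higher in CD11b DC at day 5 (774 against 470) and day 11 (1059 against 553) and in moDC at day 11 (910 against 403). An alternative chosen after seeing the data left out the arrays that stood apart. It gave 2 higher and 4 lower in CD11b DC at day 11 (median change -0.02, in place of -0.29, with 4.66% of all genes called) and 1 and 4 in monocytes (9.65%). Stat3, a transducer of G-CSF signals, fell in MHCIIlow macrophages at day 5 (-1.02 ± 0.24, adjusted p = 0.00318) and in CD11b DC at day 11 (-1.36 ± 0.24, adjusted p = 0.000214, and -0.87 without replicate 2, adjusted p = 0.00741). Jak2, the kinase bound to the beta chain, fell in MHCIIhi macrophages at day 11 (-1.62 ± 0.24, adjusted p = 1.27e-05).

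Of 16 myeloid transcription factor genes tested of 17 listed, 6 rose and 3 fell in LC at day 5 (16.1% of all genes called) and 4 and 4 at day 11 (17.7%). Irf8, a factor of monocytes and dendritic cells, rose by 2.58 ± 0.30 (adjusted p = 1.77e-08) and 1.75 ± 0.30 (adjusted p = 2.53e-05), and Irf4 rose at day 5 by 1.55 ± 0.34 (adjusted p = 0.000853). In MHCIIlow macrophages, where Csf1r fell, 0 rose and 4 fell at day 5 (14.2% of all genes called), among them Irf4 (-1.72 ± 0.34), Ets2 (-1.22 ± 0.29) and Runx1 (-1.02 ± 0.18, adjusted p = 9.54e-05), a regulator of Csf1r. At day 11, 0 rose and 3 fell in either macrophage population (9.72% of all genes called in MHCIIlow and 14.9% in MHCIIhi cells), Runx1 by 0.95 ± 0.18 in MHCIIlow cells (adjusted p = 0.000314) and by 0.77 ± 0.18 in MHCIIhi cells (adjusted p = 0.0023). The part of Runx1 in the fall of Csf1r was not tested. In the other dermal populations at day 5, 0 genes of the list were called in monocytes (12.7%), 1 in moDC (11.3%) and 3 in CD11b DC (7.98%). At day 11, 4 were called in moDC (8.42%), where Csf1r had no call. In CD11b DC at day 11, 1 rose and 2 fell (10.3%), and 0 and 2 without replicate 2 (4.66%).

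The list of 10 genes that respond to GM-CSF and STAT5 had 4 higher and 1 lower in LC at day 5 (median change 0.79, 16.1% of all genes called) and 3 and 3 at day 11 (0.05, 17.7%). The chemokine genes Ccl17 (5.91 ± 0.40, adjusted p = 3.33e-14) and Ccl22 (4.58 ± 0.45, adjusted p = 6.06e-10) and the cytokine gene Osm (3.22 ± 0.35, adjusted p = 5.59e-09) led the rises at day 5. In the dermis at day 5, 2 of 10 were called in monocytes (12.7%), 1 in moDC (11.3%), 2 in MHCIIlow macrophages (14.2%) and 2 in CD11b DC (7.98%). The list mean was 8.21 to 8.43 in untreated CD11b DC and 8.55 to 8.83 at day 5. In LC it was 6.73 to 7.01 untreated and 8.34 to 8.55 at day 5. At day 11 the list had 0 higher and 3 lower in MHCIIlow macrophages (9.72% of all genes called) and 0 higher and 4 lower in MHCIIhi macrophages (14.9%), the latter including Ccl17 (-4.36 ± 0.40, adjusted p = 6.93e-10), the STAT5-induced inhibitor Cish (-1.61 ± 0.31, adjusted p = 0.000323) and the kinase gene Pim1 (-1.47 ± 0.29, adjusted p = 0.000392). In CD11b DC at day 11, 1 was higher and 3 lower (10.3%), and 1 and 1 without replicate 2 (4.66%). In moDC at day 11, 2 of 10 were called (8.42%). Cish in LC read 8.11, 8.21 and 7.38 untreated, 8.60, 8.60 and 8.54 at day 5 and 6.80, 7.68 and 7.83 at day 11, and fell by 1.14 ± 0.31 between the days (adjusted p = 0.038).

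**Figure D4:**
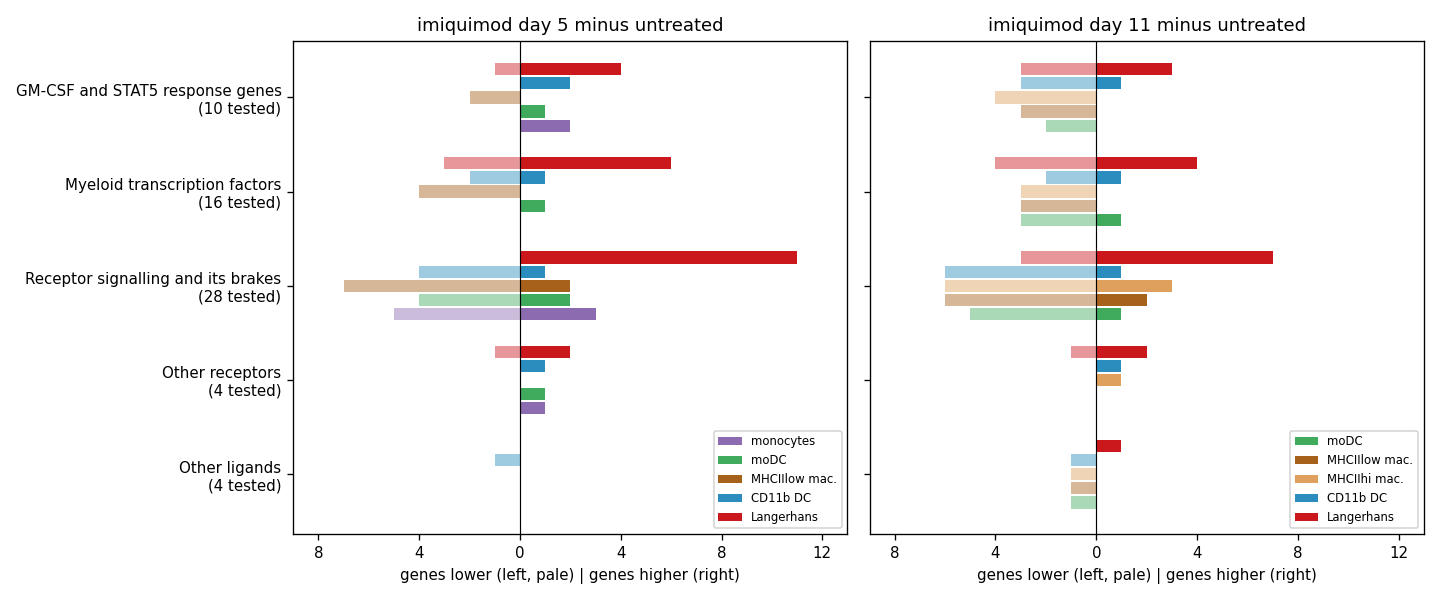
Number of genes of 5 pathway lists (y axis) called higher (solid, to the right) or lower (pale, to the left) under imiquimod in each population at day 5 and day 11. In the signalling list LC have 11 higher and 0 lower of 28 at day 5, while each dermal population has 4 to 7 lower and 1 to 3 higher.

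Other genes had group patterns close to those of the members, measured as Pearson's r over the 16 group means among genes that passed the filter. These values are a description, since the genes share arrays and sorts. The closest to Csf1r were Dgkz (0.92), Sash1 (0.88) and Rgl2 (0.87). For Csf3r they were the scavenger receptor gene Msr1 (0.95), the lectin gene Clec4d (0.95) and Fcgr1 (0.94), whose product CD64 was part of the sort. For Flt3 they were Ccr7 (0.95), the receptor that leads dendritic cells to lymph nodes, Klrd1 (0.95) and Syngr2 (0.94). Csf2ra was closest to St3gal5 (0.93), Mcemp1 (0.93) and Klrk1 (0.92), and Csf2rb to Rin3 (0.94), Pfkp (0.94) and Atp8b2 (0.93). The patterns of the ligands follow their single high group: Il34 went with Slc6a14, Kif21a and the keratin gene Krt24 (0.98 for each), and Csf1 with Sfrp4 (0.96), Akap12 (0.95) and Eno2 (0.94). Among the members, the closest pairs were Csf2rb with Flt3 (0.85), Csf2ra with Flt3 (0.77) and Csf2ra with Csf2rb (0.75), and Csf1r ran opposite to Csf2ra (-0.64) and Flt3 (-0.63).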

How the data were processed

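Expression was measured on Affymetrix mouse gene arrays, 48 in 16 groups of 3. The deposited values are log2 expression values, already background-corrected, quantile-normalised and summarised per probe set by the authors with RMA. The submitters' processing notes list RMA, oligo and limma without versions. A series table and a full table were deposited and were identical (largest difference 0). No further normalisation was applied.

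Of 35556 probe sets, 21789 carried 1 gene symbol, 1621 several and 12146 none. For 21698 of those with 1 symbol the gene identifier matched RefSeq, and 0 symbols changed. Probe sets above log2 3.77, the 40th percentile over the table, on 3 or more arrays were kept, and the one with the highest mean stood for its gene (15591 genes). The genes followed and all lists were chosen with earlier results of these data known. A limma model (version 3.58.1, R 4.3.3) with a mean for each group gave 33 contrasts, two-sided, with Benjamini-Hochberg adjustment within each. The fit was tested on simulated data. The genes named are the members in every group, Csf2rb2, up to 3 called genes of each pathway list with the largest change in a contrast, up to 2 genes of a marker list by mean level, and the 3 genes most like each member. Csf2, Ptprz1 and Kitl were chosen after their values were seen. Motifs were searched in the 250 bases before each RefSeq transcript start. The number of arrays limits the precision. Alternatives are listed at the end.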

Additional observations from a re-analysis of the deposited data

Results flagged for a closer look

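For 5 of the 7 members and for Csf2rb2 the response of Langerhans cells differed from the mean response of the dermal populations by the test of the difference itself (limma, adjusted over all genes tested). Of all genes tested, 13.5% were called by this test at day 5 and 12.4% at day 11. At day 5 the difference was 2.36 for Flt3, -2.74 for Il34, 0.66 for Csf1r, 0.99 for Csf2ra, 1.08 for Csf2rb and 1.07 for Csf2rb2 (log2). At day 11 it was 2.44 for Flt3, -2.93 for Il34, 1.04 for Csf1r, 0.89 for Csf2ra, 1.09 for Csf2rb and 1.59 for Csf2rb2. For each of these genes all 3 treated Langerhans cell arrays at either day lay outside the range of the untreated ones. These are the values that the test used, so this is a description and no further support. The share of all genes with arrays so separated was not counted. The Csf2rb2 difference at day 5 (adjusted p = 0.0412) is the least firm, as it was lost under 3 other settings and when any of 16 single arrays was left out (adjusted p up to 0.174). With 3 arrays per group, no test for a single outlying array was made.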

How the results depend on the processing

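Over the 7 members, 104 of 231 values passed the test. Of these calls, 69 held in all settings tried, 35 were lost in at least 1, and 0 changed direction with a call. All 10 called response differences between Langerhans cells and dermis held, against 9 of 22 treatment calls. Of values not past the test in either setting, 110 (in 51 results, up to 0.469 in size) changed sign. Counts of called members moved by over 1.5 times as follows (except for the arrays left out, the cause was not tested). Quantile normalisation gave 3 in LC at day 11 in place of 5, median-centring 1 in CD11b DC at day 5 in place of 2, and the 60th percentile filter 0 in monocytes in place of 1. Fitting only the groups compared, which leaves few arrays to estimate the spread, gave 0 in monocytes and moDC and 1 in CD11b DC at day 5. At day 11 it gave 2 in MHCIIlow and 1 in MHCIIhi macrophages, 0 in CD11b DC (also against day 5), 3 in LC and 2 between LC and CD11b DC. In untreated skin it gave 0 for moDC against monocytes, 3 and 1 for MHCIIhi macrophages against monocytes and moDC, 0 between macrophages, and 2 for CD11b DC against monocytes. Array weights gave 2 in MHCIIlow macrophages and 1 in CD11b DC at day 11, 0 for CD11b DC day 11 against day 5, and 1 for untreated moDC against monocytes. Leaving out both arrays that stood apart gave 1 in moDC, 2 in MHCIIlow macrophages and 0 in CD11b DC at day 11, 0 for CD11b DC day 11 against day 5, and 2 between LC and CD11b DC at day 11. Leaving out single arrays gave 0 to 1 in moDC, 1 to 2 in CD11b DC and 3 to 5 in LC at day 5, and 0 to 3 in CD11b DC and 3 to 4 in LC at day 11. It gave 0 to 1 for CD11b DC day 11 against day 5, 2 to 4 between LC and CD11b DC at day 11, and 1 to 3 for untreated moDC against monocytes. Replicate numbers were not used to pair the samples, as same-numbered arrays did not all correlate above 0.1 in any contrast (range -0.0955 to 0.327). This does not exclude pairing. In untreated MHCIIlow macrophages against moDC, 3 of 3 arrays correlated best with their own number (0.0686 to 0.232). The same held in untreated CD11b DC against MHCIIhi macrophages (0.0256 to 0.0787). With the replicate block 1 member was called in CD11b DC at day 5 in place of 2. Counts over all genes moved by over 1.5 times in 21 of 33 contrasts when only the groups compared were fitted (as low as 0 for moDC day 11 against day 5, in place of 158), and in 9 of 33 with array weights (up to 4.19 times). Signal near background limits Csf1, Il34 outside untreated LC, and Csf3r in LC.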

Other observations

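Levels of 3 further listed genes are given here. Ptprz1, which encodes another known receptor of IL-34, lay between 2.38 and 3.28 on all 48 arrays, below the filter threshold of 3.77. Il3ra, the interleukin-3-binding chain that pairs with the beta chains, read 6.16, 6.10 and 6.14 in untreated monocytes and 7.27, 7.86 and 7.59 at day 5, a rise of 1.44 ± 0.29 (limma adjusted p = 0.000998) with no overlap, and 1.42 without untreated replicate 2 (adjusted p = 0.00464). Kitl, the gene of stem cell factor, read 5.47 in untreated monocyte replicate 2, the array with the highest fibroblast markers, and 2.99 and 2.96 in the other 2 arrays of that group.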
